A study of Mus musculus with 13 samples.

Results

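Integrins are cell surface receptors made of an alpha and a beta chain, and each pair binds its own set of matrix or cell surface ligands. The genes described here are 8 integrin subunits of melanoma cells, Itga3, Itga4, Itga5, Itga6, Itgav, Itgb1, Itgb3 and Itgb5, which were chosen by symbol from the 22656 genes of the deposited table, and all 8 were found in it. The beta 1 chain pairs with many alpha chains, among them alpha 3, alpha 4, alpha 5, alpha 6 and alpha v, while beta 3 and beta 5 pair with alpha v. Outside the cell the pairs bind fibronectin, laminins, vitronectin or VCAM1. Inside the cell, talins and kindlins bind the beta tails and switch the receptors to their ligand-binding form. In melanoma, alpha v beta 3 and alpha 4 beta 1 are known from work on invasion and on adhesion to vessel walls.

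The RNA came from B16F10-TR-shApoe cells, a derivative of the C57BL/6 mouse melanoma line B16F10 that carries a hairpin against its own Apoe gene. These cells were injected into a tail vein of knock-in mice with the human allele APOE2 (8 libraries) or APOE3 (5 libraries), and both groups received the same cells. Lungs were digested 15 days later, and cells low for the dead-cell stain TO-PRO-3, positive for GFP and negative for CD45, an antigen of leukocytes, were sorted from the suspension. The age and sex of the mice and the strain behind the knock-in alleles are not in the labels, and no culture without a host was analysed here. Because the labels do not say that each library came from a separate mouse, p-values measure the spread between these libraries. In bulk RNA, fewer cells of a type and less RNA per cell cannot be told apart.

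Recovered reads ran from 7080308 to 13039989 per library. The 10 melanocyte genes listed (Dct, Tyr, Tyrp1, Pmel and others) summed to 351960 to 509415 normalised counts in APOE2 and 278989 to 388703 in APOE3, so the labelled cell type was met by its markers in every library. Dct, the largest part of that sum, had means of 232522 and 150389. Of the 10 genes 6 had a log2 difference, APOE2 minus APOE3, above 0 and 4 below. The median was 0.013, and 0 passed the adjusted threshold. Markers of other lung cells were also detected. The 15 lung epithelium genes summed to 637 to 4141 normalised counts in APOE2 and 3453 to 21702 in APOE3, and 10 of the 11 that were tested had a log2 difference below 0 (lower in APOE2), 6 of them past the adjusted threshold. Of these 10, Scgb1a1 had the higher mean count in APOE2, at 157 against 29.5, with 1 library at 1065. On the same log2 scale all 14 endothelial genes were tested and all 14 were lower in APOE2, with 1 past the threshold, and their summed level ran from 731 to 1180 in APOE2 against 1048 to 2391 in APOE3. All 8 tested fibroblast and smooth muscle genes of 13 listed were lower in APOE2, with 1 past the threshold. The sums of the 13 overlapped, at 556 to 907 in APOE2 and 554 to 2339 in APOE3.

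In APOE2 the 8 subunits summed to 6913 ± 679 normalised counts (SD, n = 8), and in APOE3 they summed to 7184 ± 931 (SD, n = 5). That was 92.0% and 90.6% of the counts of all 25 integrin subunit genes in the table. Their order of abundance was Itgb1, Itgav, Itga4, Itga6, Itgb3, Itga5, Itgb5 and Itga3. Each read of this assay marks the end of 1 transcript next to the poly(A) tail, so counts are not divided by length. When they were divided by the length of the longest principal transcript, the order of the means was the same, from 1441 normalised counts per kilobase for Itgb1, 92.2 for Itgav and 45.7 for Itga4, through 40.9 for Itga6, 29.1 for Itgb3 and 9.63 for Itga5, to 9.62 for Itgb5 and 1.33 for Itga3.

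Itgb1 was first in 13 of 13 libraries, with 5.02 to 13.6 times the counts of Itgav. Itgav exceeded Itga4 in 11 of 13 libraries, and Itga4 exceeded Itga6 in 13 of 13. Itga6 and Itgb3 changed places from library to library, with Itga6 higher in 7 of 13, so their levels did not differ beyond the spread. The same held for Itga5 and Itgb5, with Itga5 higher in 8 of 13, while Itgb3 exceeded Itga5 in 13 of 13.

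**Figure D1:**
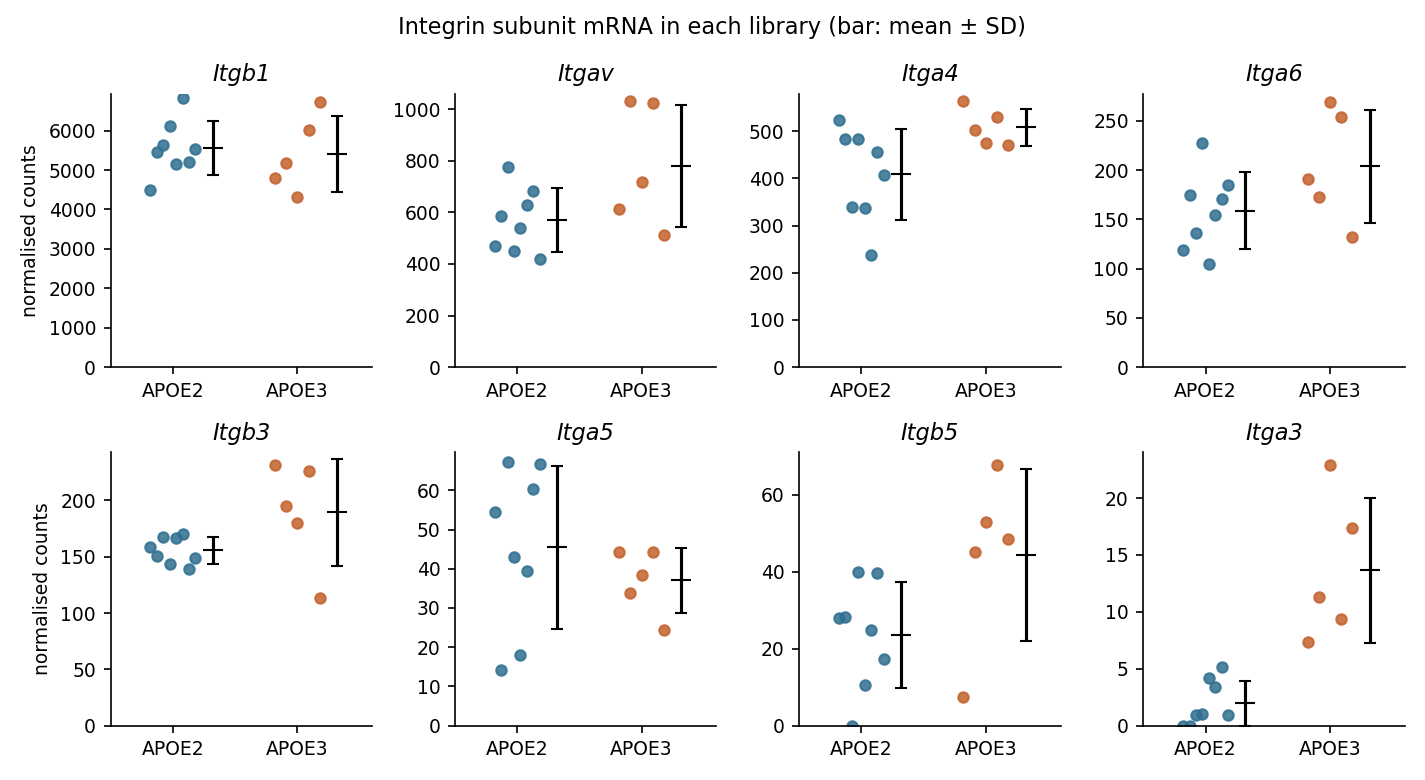
Normalised counts (y axes, linear from 0) of the 8 subunits in each library of APOE2 hosts (blue, n = 8) and APOE3 hosts (orange, n = 5), with the mean and SD as a bar. The groups overlap in every panel except Itga3, where the 8 APOE2 libraries reach 5.18 and the lowest APOE3 library has 7.37.

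Host genotype was tested for each subunit on the log2(normalised count + 1) scale with limma, fitted to the 12403 genes whose mean reached 10 normalised counts and adjusted over all of them by the Benjamini-Hochberg method. Of the 8 subunits 7 passed that filter, and Itga3 did not. Of the 7, 0 passed an adjusted p of 0.05, beside 0.790% of all tested genes (98 genes, 0.411% with higher and 0.379% with lower values in APOE2). The edgeR quasi-likelihood test and DESeq2 on recovered reads also called 0 of the 7. At an unadjusted p under 0.05 there were 2 of the 7, Itgav and Itga4, both with lower values in APOE2. That unadjusted threshold was passed by 14.2% of all tested genes in either direction, with lower values in APOE2 by 6.71% and with higher values by 7.51%. The log2 difference, APOE2 minus APOE3, was below 0 for 5 of the 7, beside 49.9% of all tested genes, and its median was −0.35, beside 0.00037 over all tested genes.

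Itgb1 (ENSMUSG00000025809, GRCm38 chr8:128685654-128733200, plus strand) encodes beta 1, the common partner of most alpha chains. It had a lowest, median and highest value of 4498, 5492 and 6817 normalised counts in APOE2. In APOE3 replicates 1 to 5 the values were 4796, 5169, 4326, 6013 and 6736. The highest libraries of both groups lay close together, and the ranges overlapped almost entirely. The log2 difference was 0.046 ± 0.12 (SE), with a 95% interval of −0.20 to 0.29 and a limma adjusted p of 0.901. That interval spans a change of −12.8% to 22.2%. Its coefficient of variation was 12.4% in APOE2 and 17.9% in APOE3, against 1.30% and 1.40% from counting alone.

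Itgav (ENSMUSG00000027087, chr2:83724397-83806916, plus strand) encodes alpha v, which pairs with beta 1, beta 3 and beta 5 and binds vitronectin and other ligands with an RGD sequence. In APOE2 its lowest, median and highest values were 419, 564 and 777 normalised counts. In APOE3 replicates 1 to 5 the values were 613, 1030.5, 719, 1026 and 511. Replicates 2 and 4 of APOE3 stood above all other libraries, replicate 5 lay inside the APOE2 range, and 7 of 8 APOE2 libraries were below the APOE3 mean of log2 values. The log2 difference was −0.43 ± 0.18 (SE), with a 95% interval of −0.79 to −0.06, an unadjusted p of 0.0235 and a limma adjusted p of 0.275. Without APOE3 replicate 5 the difference was −0.57 (limma adjusted p = 0.126), and without APOE3 replicate 2 it was −0.31. Within groups Itgav correlated with the summed fibroblast and smooth muscle markers at 0.59 over 13 libraries (Spearman 0.65), and at 0.50 over the 11 left without APOE3 replicates 1 and 4. That correlation was 0.25 within APOE2 alone and 0.77 within APOE3 alone. The part of fibroblast and smooth muscle RNA in the Itgav counts was not tested. Exons of Itgav overlap Gm13684 on the opposite strand, and the strand setting of the counting is not given in the sources used here.

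Itgb3 (ENSMUSG00000020689, chr11:104608000-104670476, plus strand) encodes beta 3, the partner of alpha v in the vitronectin receptor of melanoma and of alpha IIb in platelets. In APOE2 it ran from 139 through a median of 155 to 170.5 normalised counts. In APOE3 replicates 1 to 5 it had 232, 195, 180.0, 226 and 113. Of these, 4 APOE3 libraries lay above every APOE2 library and replicate 5 lay below every one. The log2 difference was −0.24 ± 0.20 (SE; limma adjusted p = 0.611), and without APOE3 replicate 5 it was −0.41 (limma adjusted p = 0.284). Within APOE2 its coefficient of variation of 7.65% was no larger than the 7.74% that counting alone gives, while in APOE3 it was 25.1% against 7.44%. Platelet genes were low: the 8 found summed to 10.1 to 37.0 normalised counts in APOE2 and 5.78 to 70.8 in APOE3. That sum includes Itga2b, which encodes alpha IIb and had means of 9.95 in APOE2 and 9.47 in APOE3. Gp9, Gp1ba and Treml1 had reads in 1 library each, while Ppbp, the only one past the filter, had means of 6.43 and 21.2 with up to 56.5, and Pf4 reached 31.7. Within groups Itgb3 correlated with the platelet sum at 0.48 over 13 libraries (Spearman 0.20), and at −0.015 over the 11 left without APOE3 replicates 3 and 5. The part of platelet RNA in the Itgb3 counts was not tested.

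Itgb5 (ENSMUSG00000022817, chr16:33829665-33949338, plus strand) encodes beta 5, the other vitronectin-binding partner of alpha v in this set. It was low, with a lowest, median and highest value of 0, 26.4 and 39.9 normalised counts in APOE2. In APOE3 replicates 1 to 5 it had 7.37, 45.2, 53.1, 67.8 and 48.6. Replicates 2 to 5 of APOE3 exceeded every APOE2 library, and replicate 1 lay below 7 of the 8. Its log2 difference was −1.11 ± 0.74 (SE), with a 95% interval of −2.64 to 0.42 and a limma adjusted p of 0.515. Without APOE2 replicate 3, the library with 0 reads, the difference was −0.52, and without APOE3 replicate 1 it was −1.65.

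Itgb5 moved with RNA of lung epithelium. After each group's mean was taken off, its log2 values had a Pearson correlation of 0.87 and a Spearman correlation of 0.82 with the summed epithelium markers over 13 libraries, which share their depth and scaling. Without the libraries farthest from the median of those markers, APOE2 replicate 3 and APOE3 replicate 1, r was 0.76 over 11 libraries. It was 0.86 within APOE2 alone and 0.93 within APOE3 alone. With the summed leukocyte markers, most of which is Lyz2, r was 0.81. Of the other 7 subunits, Itga6 had the next largest correlation with these markers, at 0.30. The epithelial markers at 0 in some libraries were Scgb1a1, Epcam, Hopx, Krt8, Krt18 and Nkx2-1, and the surfactant genes had reads in every library. The part of epithelial RNA in the Itgb5 counts was not tested.

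**Figure D2:**
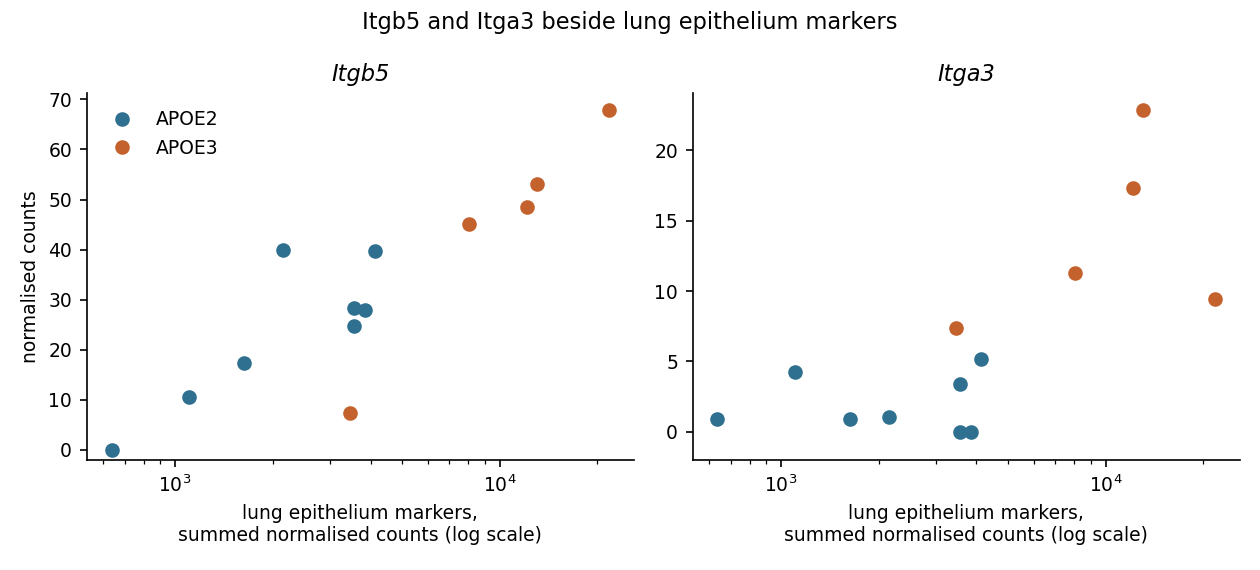
Normalised counts of Itgb5 (left) and Itga3 (right) against the summed normalised counts of 15 lung epithelium marker genes (log axis), for each APOE2 (blue) and APOE3 (orange) library. Itgb5 is higher where the marker sum is higher in both groups, from 0 in the library with a marker sum of 637 to 67.8 in the library with 21702, whereas Itga3 is under 6 in all APOE2 libraries whatever their marker sum.

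Itga4 (ENSMUSG00000027009, chr2:79255426-79333123, plus strand) encodes alpha 4, which with beta 1 binds VCAM1 and fibronectin. Its lowest, median and highest values in APOE2 were 237, 431 and 524 normalised counts. In APOE3 replicates 1 to 5 they were 564, 502, 476, 529 and 469.7. The APOE3 libraries sat in a narrow band, 2 of them above every APOE2 library and 3 inside the upper part of the APOE2 range, with a coefficient of variation of 7.68% against 23.7% in APOE2, and 5 of 8 APOE2 libraries were below the lowest APOE3 library. The log2 difference was −0.35 ± 0.17 (SE), with a 95% interval of −0.70 to −0.01, an unadjusted p of 0.0466 and a limma adjusted p of 0.344. Without APOE2 replicate 6, the lowest library, it was −0.25. Exons of Itga4 overlap Cerkl on the opposite strand.

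Itga5 (ENSMUSG00000000555, chr15:103344286-103366763, minus strand) encodes alpha 5 of the classical fibronectin receptor. In APOE2 it had 14.1, 48.8 and 67.1 normalised counts as lowest, median and highest value, and in APOE3 replicates 1 to 5 it had 44.2, 33.9, 38.5, 44.2 and 24.3. Every APOE3 library lay inside the APOE2 range. The groups had a log2 difference of 0.14 ± 0.42 (SE; limma adjusted p = 0.918). Its 95% interval spans a change of −39.6% to 101%, at 14 to 80 reads per library.

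Itga6 (ENSMUSG00000027111, chr2:71745616-71858416, plus strand) encodes alpha 6 of laminin receptors, which pairs with beta 1 or with beta 4. In APOE2 it had 105, 163 and 227 normalised counts as lowest, median and highest value. In APOE3 replicates 1 to 5 it had 191, 173, 269.5, 254 and 132. Replicates 3 and 4 of APOE3 exceeded every APOE2 library, and the other 3 lay inside the APOE2 range. A log2 difference of −0.35 ± 0.22 (SE) was measured, with a 95% interval of −0.80 to 0.11 and a limma adjusted p of 0.494.

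Itga3 (ENSMUSG00000001507, chr11:95044474-95076801, minus strand) encodes alpha 3, the other laminin-binding partner of beta 1 in this set, which is abundant in epithelia. It was the rarest of the 8. In APOE2 replicates 1 to 8 there were 0, 0, 1, 1, 4, 3, 6 and 1 reads, and in APOE3 replicates 1 to 5 there were 7, 10, 22, 10 and 15. As normalised counts that was 1.96 ± 2.01 (SD, n = 8) and 13.7 ± 6.37 (SD, n = 5), and the mean of APOE3 was 6.99 times that of APOE2. The highest APOE2 library was below the lowest of APOE3, a pattern found in 0.0780% of the 10253 genes below the filter (8 genes) and in 0.508% of the tested genes. Groups apart in either direction were found in 0.0878% and 0.984% of them. A gene with 0 reads in any APOE3 library cannot have all APOE2 libraries below all APOE3 libraries. How many of the 10253 genes had such a library was not counted, so their share is not one for genes with reads throughout APOE3. The log2 difference, which understates a change at such levels, was −2.51.

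With no filter on low values Itga3 had an unadjusted p of 0.00235 (5.30% of genes had one under 0.05 with lower values in APOE2) and a limma adjusted p of 0.212 over 22656 genes, of which 9 (0.0397%) were called, so it did not pass. Leaving out each library in turn gave differences of −2.71 to −2.31 and limma adjusted p-values of 0.151 to 0.361, and edgeR with no filter gave an adjusted p of 0.241. The epithelial marker sum was higher in 4 of the 5 APOE3 libraries than in every APOE2 library. Within groups, Itga3 and that sum had a correlation of 0.070 over 13 libraries, of −0.062 within APOE2 and of 0.46 within APOE3. These correlations rest on 0 to 22 reads of Itga3 per library. The part of epithelial RNA in the Itga3 reads was not tested.

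**Figure D3:**
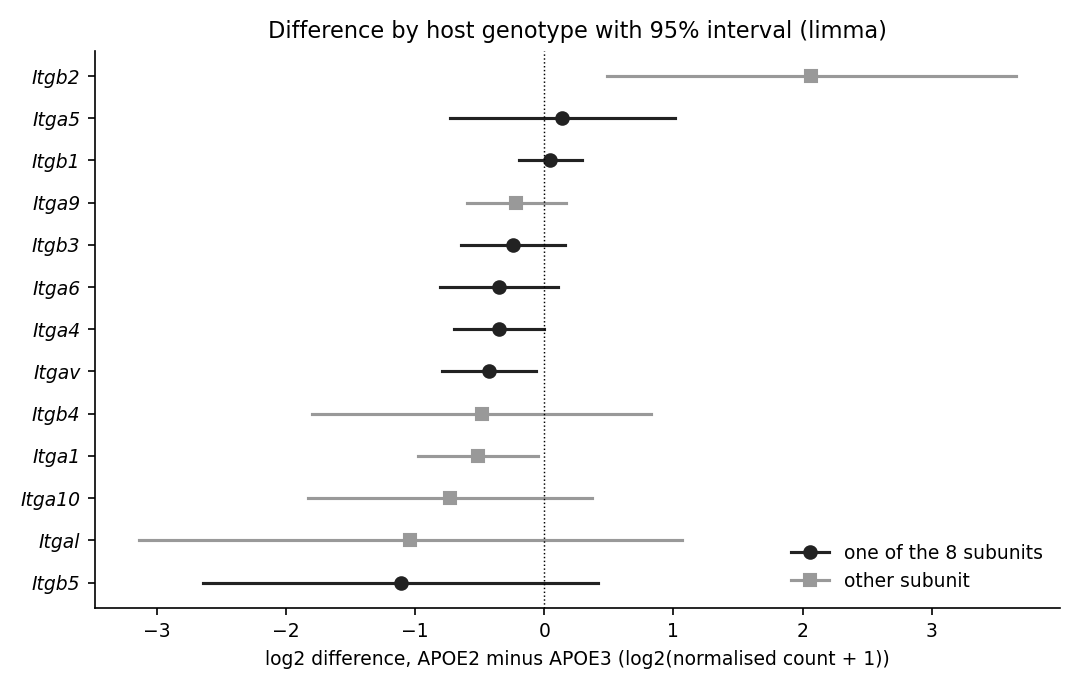
Log2 difference, APOE2 minus APOE3 (x axis), with its 95% limma interval for the 7 tested subunits of the set (black circles) and 6 other tested integrin subunits (grey squares). The interval of Itgb1 is the narrowest, at −0.20 to 0.29, and those of Itgav, Itga4, Itga1 and Itgb2 exclude 0 before adjustment, while 0 of the 13 genes pass the adjusted threshold.

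The make-up of the integrin mRNA was then described as shares. Itgb1 was 73.7% ± 2.93 (SD, n = 8) of all integrin subunit counts in APOE2 and 67.9% ± 4.30 (SD, n = 5) in APOE3. Itgav was 7.59% ± 1.58 and 9.90% ± 2.81, and Itga4 was 5.53% ± 1.57 and 6.50% ± 1.07. The 12 alpha chains that are listed here as partners of beta 1, which include the 5 alpha chains of the set, summed to 1694 ± 144 normalised counts in APOE2, with a range of 1428 to 1868. In APOE3 they summed to 2206 ± 312, with a range of 1940.3 to 2639, so these summed levels did not overlap. Among single tested genes, 0.508% had all APOE2 libraries below all APOE3 libraries, but that share is not a background for a sum of 12 genes. No share was computed for such sums. Taken singly, each of these alpha chains that passed the filter overlapped between the groups, while Itga3, below the filter, did not. The sums of the 8 subunits did overlap, at 5852 to 8075 in APOE2 and 6085 to 8170 in APOE3. So did those of all 25 subunits, at 6518 to 8746 and 6702 to 9064. Itgb1 had 3.30 ± 0.49 times the summed counts of the 12 alpha chains in APOE2 and 2.48 ± 0.54 times in APOE3. These ratios overlapped, from 2.64 to 4.09 and from 2.12 to 3.41. These sums are descriptions of genes that were tested one by one above, and they carry no test of their own.

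**Figure D4:**
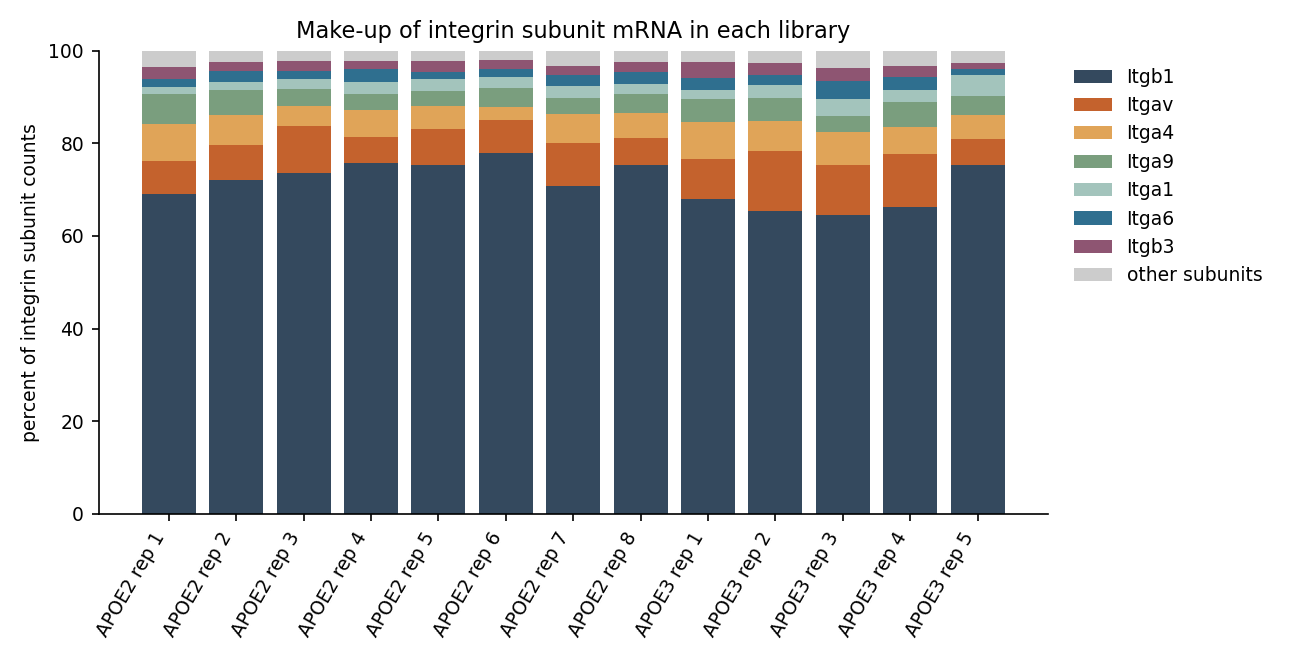
Share of each subunit in the summed normalised counts of all 25 integrin subunit genes (y axis, percent) in each library (x axis). Itgb1 makes up 64.5% to 77.9% of every library, and Itgav 5.58% to 13.03%.

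The subunits did not vary together as a block. Over 28 pairs, correlations of log2 values within groups (13 libraries, which share depth and scaling) had a median of 0.037, and 15 were above 0. The largest was 0.50 for Itgav with Itgb3. The lowest were −0.57 for Itga3 with Itga4 and −0.46 for Itga4 with Itgb1. Pairs that form a receptor lay on both sides of 0. Above it, beside Itgav with Itgb3, were Itga3 with Itgb1 (0.16) and Itgav with Itgb1 (0.0069). Below it, beside Itga4 with Itgb1, were Itgav with Itgb5 (−0.17), Itga5 with Itgb1 (−0.14) and Itga6 with Itgb1 (−0.028). The genes most like each subunit were sought among 9679 other genes whose mean reached 50 normalised counts. For Itgb1 they were Ddx51 (r = 0.94) and Shmt2 (r = 0.91), for Itgb3 N6amt1 (r = 0.93) and Irf2bpl (r = 0.91), and for Itgav Nacc2 (r = 0.88) and Zfp597 (r = 0.86). For Itga6 they were Fam69b (r = 0.89) and Zfand2a (r = 0.82), and for Itga4 Pla2g6 (r = 0.86) and Pard6g (r = 0.82). These are the highest of 9679 values over 13 libraries, and 0 of the genes named passed the adjusted threshold for host genotype. Within groups Itgb1 correlated with the summed endothelial markers at 0.68, with erythroid markers at 0.65 and with melanocyte markers at −0.58. Within APOE2 alone these values were 0.65, 0.34 and −0.80, and within APOE3 alone 0.72, 0.90 and −0.34. The part of those cells in the Itgb1 counts was not tested.

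Of the 19 other integrin subunit genes listed, 17 were in the table and 6 passed the filter. Of these, 0 passed the adjusted threshold and 2 had an unadjusted p under 0.05, beside 14.2% of all tested genes. Itga9 encodes alpha 9, a relative of alpha 4 that also pairs with beta 1. In APOE2 it had 317 ± 72.3 normalised counts (SD, n = 8) against 369 ± 93.1 (SD, n = 5) in APOE3, which placed it between Itga4 and Itga6 in level, and its log2 difference was −0.22 (limma adjusted p = 0.634). Itga1, the collagen-binding alpha 1, had 165 ± 34.9 and 244 ± 91.5, with a log2 difference of −0.51 ± 0.23 (SE), an unadjusted p of 0.0331 and a limma adjusted p of 0.306. The highest Itga1 value, 391 in APOE3 replicate 5, lay well above the next at 237, and without that library the log2 difference was −0.32. Within groups, Itga1 correlated with the endothelial marker sum at 0.68 over 13 libraries, with a Spearman value of only 0.35. It was 0.71 over the 11 left without APOE3 replicates 1 and 4. With the erythroid sum r was 0.53 (Spearman 0.31), but −0.0051 over the 11 left without APOE3 replicates 1 and 5. With the melanocyte sum r was −0.41, and −0.20 over the 11 left without APOE2 replicate 1 and APOE3 replicate 2. The part of endothelial RNA in the Itga1 counts was not tested. Exons of Itga1 overlap Gm49395 on the same strand.

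Itgb2, the beta chain of leukocyte integrins, went the other way. It had 26.1 ± 21.0 normalised counts in APOE2 and 5.99 ± 5.52 in APOE3, with a log2 difference of 2.07 ± 0.77 (SE), an unadjusted p of 0.0126 and a limma adjusted p of 0.217. The groups overlapped, but 5 of 8 APOE2 libraries lay above the highest APOE3 library. The alpha chains that pair with it were low. Itgam had means of 8.27 in APOE2 and 4.75 in APOE3, Itgax had 3.68 and 10.2, and both were below the filter. Itgal had 9.66 ± 12.5 against 13.6 ± 9.73, with a log2 difference of −1.04 (limma adjusted p = 0.686). Of the 21 leukocyte genes listed 20 were found and 8 were tested, 6 with a log2 difference below 0 and 2 above 0. Past the adjusted threshold 2 fell in APOE2, beside 0.379% of all tested genes in that direction. They were Lyz2 and Cd74, the latter with means of 32.2 and 116 (limma adjusted p = 0.0301). The summed level of the 20 found ran from 509 to 2585 in APOE2 against 2120 to 12369 in APOE3. Most of that sum was Lyz2, which alveolar type 2 cells also make, with means of 1162 and 5288. Some listed genes had higher means in APOE2, as Itgb2 did. Among them were S100a9 at 72.2 against 57.2 (limma adjusted p = 0.656) and Marco, below the filter, at 5.62 against 0.421. Others had lower means, among them Ptprc, which encodes the CD45 antigen of the sort, at 6.90 ± 5.45 and 14.0 ± 13.9. Cd3d was at 0 in all APOE3 libraries. Within groups the correlation of Itgb2 with the leukocyte sum was −0.047.

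Itgb4, the laminin-binding partner of alpha 6 in epithelia, had 27.9 ± 18.1 and 31.3 ± 13.4 normalised counts (log2 difference −0.48, limma adjusted p = 0.777). Without APOE2 replicate 3 that difference was 0.014, on the other side of 0. Itga10, a collagen-binding chain, had 17.8 ± 9.38 and 29.0 ± 15.9 (log2 difference −0.73, limma adjusted p = 0.564). Itgb4 overlaps B230344G16Rik on the opposite strand and Itga10 overlaps Gm42957 on the same strand. The platelet chain Itga2b, the epithelial Itgb6 and Itga2 and the remaining 8 subunits in the table were below the filter.

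Genes that act with integrins were read from lists of adaptors, partners and ligands. Of 46 adaptor and signalling genes listed 43 were tested, and 0 passed the adjusted threshold in either direction. Their median log2 difference was −0.08. At an unadjusted p under 0.05 there were 2 with higher and 4 with lower values in APOE2, beside 7.51% and 6.71% of all tested genes. Fermt2, kindlin-2, which binds beta tails and activates integrins, had the smallest p of this list. It had 1753 ± 296 normalised counts in APOE2 and 1214 ± 261 in APOE3, a log2 difference of 0.54 ± 0.14 (SE) and a limma adjusted p of 0.0635. The values of 6 APOE2 libraries were above the highest APOE3 library, while APOE3 replicates 1 and 3, at 1531 and 1459, lay within the APOE2 range that starts at 1429. It passed with a pseudocount of 5 (limma adjusted p = 0.0496), without APOE2 replicate 6 (0.0499), without APOE3 replicate 1 (0.0224) and in DESeq2 (0.0170).

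The next adaptors by p-value had lower values in APOE2. Parva, alpha-parvin of the complex that links integrin-linked kinase to actin, had 475 ± 64.8 and 678 ± 219 normalised counts, a log2 difference of −0.47 ± 0.16 (SE) and a limma adjusted p of 0.171. Tns1, tensin-1, an actin-binding protein of adhesion sites, had 46.0 ± 16.4 and 145 ± 114, with values of 27.4, 159, 113, 329 and 93.7 in APOE3 replicates 1 to 5. Its log2 difference was −1.34 ± 0.45 (SE). The limma adjusted p was 0.167, and Tns1 passed in edgeR (adjusted p = 0.0441), in DESeq2 (0.00848) and without APOE3 replicate 1 (0.0194).

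Among 28 listed partners and traffic genes 26 were tested, and 1 fell in APOE2 past the adjusted threshold, beside 0.379% of all tested genes in that direction. At an unadjusted p under 0.05 there were 6 with lower and 0 with higher values, beside 6.71% and 7.51% of all tested genes. The list's median log2 difference was −0.19. The gene that fell was Cd81, a tetraspanin, a kind of membrane protein that gathers integrins and other receptors into clusters. It had a lowest, median and highest value of 1681, 1926 and 2237 normalised counts in APOE2, and in APOE3 replicates 1 to 5 it had 2607, 2608, 2249.9, 3069.8 and 2711. The groups did not overlap, as in 0.508% of all tested genes in that direction, although the highest APOE2 and the lowest APOE3 library lay close together.

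The log2 difference of Cd81 was −0.45 ± 0.10 (SE), with a 95% interval of −0.66 to −0.23 and a limma adjusted p of 0.0382. The call was lost in 9 of 13 fits that left out 1 library, with limma adjusted p-values up to 0.116 without APOE3 replicate 4, and also without the filter on low values (0.0964), without the variance trend (0.145) and with array weights (0.0740). The 9 libraries were APOE2 replicates 1, 2, 3, 4, 5 and 7 and APOE3 replicates 3, 4 and 5, and the difference in the 13 fits ran from −0.50 to −0.39. Exons of Cd81 overlap R74862 on the opposite strand. Cd81 is made by many cell types, so the lung cell markers that were also lower in APOE2 stand beside this result, and their part in it was not tested.

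Cav1, caveolin-1, a membrane coat protein that is abundant in endothelium and in flat alveolar cells, had 125 ± 51.9 and 252 ± 93.3 normalised counts, a log2 difference of −1.01 ± 0.27 (SE) and a limma adjusted p of 0.0860. It passed without APOE2 replicate 4 (0.0367), without APOE3 replicate 1 (0.0224) and in DESeq2 (0.0231). Bsg, basigin, a transmembrane glycoprotein that associates with beta 1 integrins, had 2200.0 ± 419 and 2762 ± 305, a log2 difference of −0.34 ± 0.12 (SE) and a limma adjusted p of 0.196. For Bsg 7 of 8 APOE2 libraries were below the lowest APOE3 library, and APOE2 replicate 7, at 3190.3, was above the highest.

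Of 36 listed matrix and other ligand genes 26 were tested, and 0 passed the adjusted threshold. At an unadjusted p under 0.05 there were 7 with lower and 0 with higher values in APOE2, beside 6.71% and 7.51% of all tested genes. The median log2 difference was −0.39. Col1a1, Col1a2 and Col3a1 of this list are also among the fibroblast markers, so the lists are not separate. Cdh1, E-cadherin, which binds the leukocyte integrin alpha E beta 7 and marks epithelia, had 29.4 ± 15.5 and 107 ± 71.9 normalised counts, with a log2 difference of −1.67 ± 0.48 (SE) and a limma adjusted p of 0.103. It passed without APOE3 replicate 2 (0.0308), with array weights (0.0488), in edgeR (0.0379) and in DESeq2 (0.00524). Col6a1, a chain of collagen VI, had 7.72 ± 6.41 and 53.7 ± 62.2 (log2 difference −2.48, limma adjusted p = 0.122, DESeq2 adjusted p = 0.00443), and Icam1, a ligand of beta 2 integrins, had 23.2 ± 19.2 and 82.9 ± 53.8 (log2 difference −2.002, limma adjusted p = 0.176). Each of these 3 genes is also made by lung epithelium, endothelium or fibroblasts. Most tested markers of those cells had a log2 difference below 0, as given above, and the part of those cells was not tested.

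**Figure D5:**
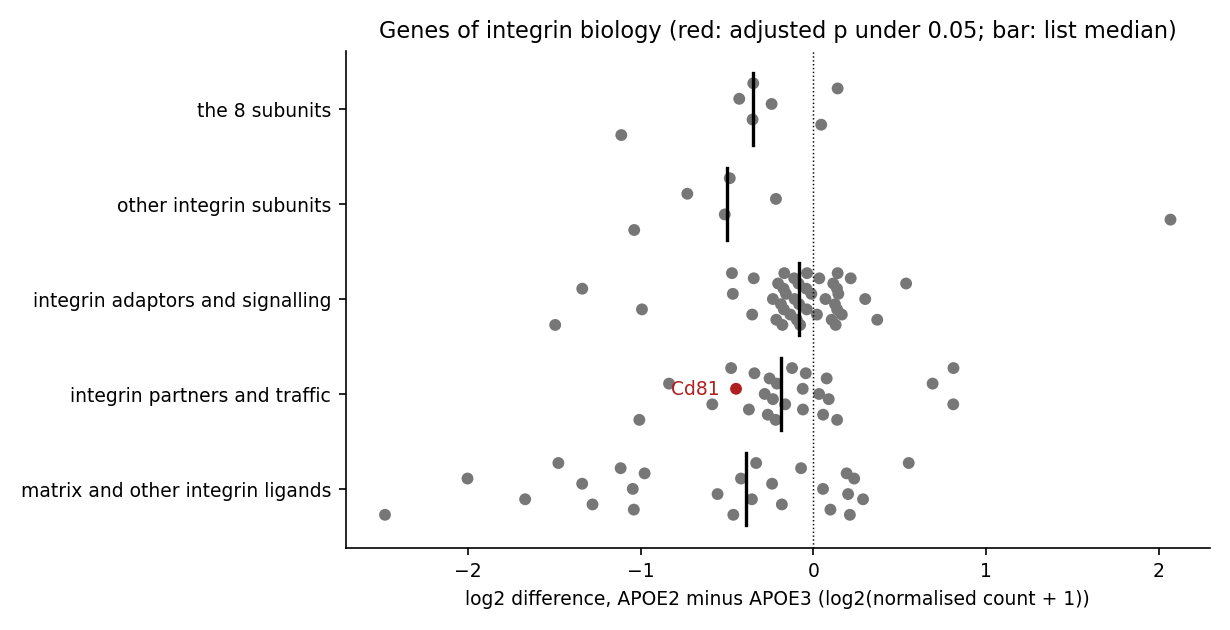
Log2 difference, APOE2 minus APOE3 (x axis), of each tested gene in the 5 lists of integrin biology (rows), with the list's median as a black bar and genes past the adjusted threshold in red. Cd81 is the only red point among the 5 lists, and the medians run from −0.50 for the other integrin subunits to −0.08 for adaptors and signalling.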

How the data were processed

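RNA of 13 sorted samples was sequenced with the QuantSeq 3' forward kit, per the labels' protocols. The submitters' processing notes name STAR 2.6.0, featureCounts, DESeq2 1.28.1 and the build mm10, with no roles given; annotation and strand setting are not given in the sources used here. The deposited values are the authors' normalised counts, which are a signal: whole reads divided by 1 size factor per library. All nonzero values, 100% in each library at a tolerance of 0.01 read, became whole reads when divided by the library's smallest nonzero value, and these recovered reads (7080308 to 13039989 per library) were used for edgeR and DESeq2. Reads carry no molecular identifiers, so they give counting error only. No pair of libraries agreed within counting noise. Symbols came from GENCODE M21 (GRCm38), in which 22649 of 22656 identifiers were found; that annotation also gave coordinates, transcript lengths and exon overlaps.

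Groups follow the titles in the labels. Values were tested as log2(value + 1) with limma 3.58.1 (R 4.3.3, intensity trend, two-sided, Benjamini-Hochberg adjustment over 12403 genes with a mean of at least 10). Fold changes on that scale understate changes of low genes. Alternatives were other pseudocounts (0.5 and 5), scalings, filters and limma settings, each library left out, a replicate block, edgeR 4.0.16 and DESeq2 1.42.0. The limma and edgeR steps were tested on simulated data. The genes named are the 8 subunits, other subunits past the filter, the 3 genes with the smallest p and any past the threshold in each list of integrin biology, and the 2 genes most correlated with each subunit of a mean of at least 50. Genes outside this rule were named after their values were seen. The members and lists were chosen with earlier results of these data known.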

Additional observations from a re-analysis of the deposited data

Results flagged for a closer look

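Each group of libraries was screened for a library far from the others relative to the group's range (Dixon's criterion at 95%). In 46 screens of named genes 5 values stood apart, where chance gives about 2.3, and 0 of them were in the 8 subunits. Itga10 had 56.5 normalised counts in APOE3 replicate 2, with the next library at 29.2. Itgal had 36.8 in APOE2 replicate 4, with the next at 16.9. Bsg had 3190.3 in APOE2 replicate 7, with the next at 2244. Col6a1 had 21.965 in APOE2 replicate 8, with the next at 10.1, and 163.8 in APOE3 replicate 4, with the next at 37.0.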

How the results depend on the processing

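The count of subunits past the threshold was 0 in each of the 26 alternatives run, of which 24 tested 7 subunits, the minimum mean of 50 tested 5, and the fit without a filter tested 8, Itga3 included. The 98 calls over all genes moved to 9 without a filter on low values, 43 with a replicate block, 0 without the variance trend (1599 at an unadjusted p under 0.05), and 311 in DESeq2. The count was 138 in edgeR and 61 in edgeR without APOE2 replicate 2, an alternative added after seeing the data, as were the unfiltered fits of Itga3 and the alternatives for Cd81, Fermt2 and the other genes named from lists. Leaving out 1 library gave 9 (without APOE3 replicate 3) to 228 (without APOE3 replicate 1), and it moved by over 1.5 times also without APOE2 replicates 1 (49), 2 (15), 5 (14), 7 (50) or 8 (57) or APOE3 replicate 4 (30). With equal library totals the split of calls was 38 higher and 54 lower, against 51 and 47. The replicate numbers did not pair the libraries, with correlations of same-numbered deviations from −0.063 to 0.014 and 0 of 5 APOE3 libraries closest to their own number. Under that block the sign of Itga5 turned (−0.12), as did that of Itgb1 without APOE3 replicate 3 and of Itgb4 without APOE2 replicate 3, with ranges of −0.030 to 0.13 and −0.72 to 0.014 over the libraries left out; the cause was not tested. Cd81 had a limma adjusted p of 0.119 under that block. The difference of Itga3 was −1.41 with a pseudocount of 5. Itgav, Itga4, Itga6, Itgb3 and Itgb5 kept their sign in every alternative run for them. Depth limits Itga3, at 0 to 22 reads per library. Itgb5 had 0 to 72 reads per library. Its coefficient of variation was 58.5% in APOE2 and 50.5% in APOE3, against 19.8% and 15.4% from counting alone.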
